A study of Mus musculus with 2 samples.

Results

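The genes described here set the pace of the G1 phase of the cell cycle. They are the D-type cyclins Ccnd1, Ccnd2 and Ccnd3, their kinases Cdk4 and Cdk6, the kinase inhibitors Cdkn1a, Cdkn1b, Cdkn1c and Cdkn2c, and the retinoblastoma gene Rb1. A gene was taken where a row of the deposited table was annotated with its symbol alone, and the row with the highest mean of both arrays was kept. This gave a value to 9 of the 10 listed genes, out of 19871 genes in the table. The exception was Cdkn1a, whose row also carries the symbol 4930567H12Rik, so no value is given for it.

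Macrophages were grown from the bone marrow of mice aged 8 weeks with conditioned medium from L929, a fibroblast line used as a source of the macrophage growth factor CSF-1. One group was labelled beta-catenin deficient and the other control, with 1 array of total RNA each. Both groups share the age, the culture medium and the array type, an Affymetrix 1.0 ST whole-transcript array. The sources used here do not give the strain, the alleles, any Cre line or how many animals went into a culture. Beta-catenin is the transcriptional arm of the canonical Wnt pathway, and the question put to these arrays is how its lack goes with gene expression in macrophages.

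D cyclins are made in response to growth factors such as CSF-1 and join Cdk4 or Cdk6. The active kinases phosphorylate the retinoblastoma protein, which then lets go of E2F factors, and these switch on the genes of DNA replication. Inhibitors of the INK4 family, such as the product of Cdkn2c, bind Cdk4 and Cdk6 directly. The Cip/Kip family, encoded by Cdkn1a, Cdkn1b and Cdkn1c, binds cyclin and kinase complexes more broadly. Ccnd1 is a textbook target of beta-catenin and its DNA-binding partners of the TCF/LEF family in epithelial tumour cells.

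Each value below is an RMA level on the log2 scale, and each difference is the array labelled deficient minus the control array. With 1 array per group there is no spread between replicates, no test was possible, and higher or lower describes these 2 arrays. A gene was counted as higher or lower when it differed by at least 1.5-fold (0.585 on the log2 scale). At least one of its values also had to reach 7.28, the median over the whole table, called the floor here. Levels of different genes were not ranked, since probes differ in brightness. Summed levels of marker lists do add up probe sets, so the brightest weigh most, and genes of like level were matched on mean level.

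The targeted gene had no lower level under the deficient label. Ctnnb1, which encodes beta-catenin, was at 11.44 in the array labelled deficient and 11.29 in the control array, a difference of 0.15. Probes outside a deleted part check nothing, and no source used here says which part was deleted. Axin2, a feedback inhibitor switched on by beta-catenin, was at 5.97 in the array labelled deficient, below the floor, and 7.61 in the control array, just above it. The direction of every difference below rests on the label.

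Of the macrophage markers, 12 of 12 reached the floor and 11 of them lay within 1.5-fold, with summed levels of 15.70 in the array labelled deficient and 15.71 in control. Fibroblast and stromal markers had a median difference of 1.04 over all 17 measured, with Fap and Lum below the floor in both arrays. Their summed levels were 14.79 in the array labelled deficient and 13.95 in control. Neutrophil and granulocyte precursor markers had a median difference of 1.30 over all 16 measured, with Camp, Cebpe and Csf3r negative. Their summed levels were 13.97 in the array labelled deficient and 12.78 in control. Below the floor were 4 of 8 mast cell and basophil markers, 6 of 9 lymphocyte and 5 of 8 dendritic cell markers. So were 2 of 6 erythroid and megakaryocyte markers and 2 of 6 endothelial markers. A marker could also reach the floor in 1 array only, as Cpa3 did in the array labelled deficient (7.66, against 5.68 in control). So did the stromal markers Pdgfra and Thy1 and the neutrophil markers Prtn3, Ctsg, Chil3, Retnlg and Ly6g. Counts of higher and lower genes at the floor are therefore not given for any list of non-macrophage markers. Over all measured markers, the median difference was 0.23 for mast cells and basophils, 0.65 for the joint erythroid and megakaryocyte list and 0.41 for endothelium. In the joint list, Ppbp (2.51), Gp9 (1.29), Itga2b (0.83) and Pf4 (0.46) were positive. The erythroid genes Klf1 (-0.77) and Epor (-0.22) were negative and below the floor. Summed levels of the joint list were 13.59 in the array labelled deficient and 12.37 in control. The median was 0.15 for lymphocyte markers and -0.29 for dendritic cell markers, against -0.15 over all genes measured. Of the dendritic cell markers, Itgax (1.53) and Cd209a (0.94) were positive. The others were negative, and all of those but Ccr7 (-0.63) were below the floor. Summed levels of the dendritic cell list were 11.53 in the array labelled deficient and 10.60 in control. The part of these cells in the differences below was not tested. In bulk RNA, fewer cells of a type and less RNA per cell cannot be told apart.

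The G1 genes did not differ in one direction as a block. At the floor stood 8 of the 9, each of them in both arrays, and Cdkn1c lay below it in both. Ccnd2 was the 1 gene counted as higher, where 7.54% of all 10658 genes at the floor were higher. Cdkn2c and Rb1 were the 2 counted as lower, where 8.81% of all genes were lower. The other 5 lay within 1.5-fold. The median difference of the 8 genes was -0.12, against -0.08 over all genes at the floor, so the typical G1 gene lay close to the typical gene of the arrays. With so few genes, these shares do not set the group apart from the rest.

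**Figure D1:**
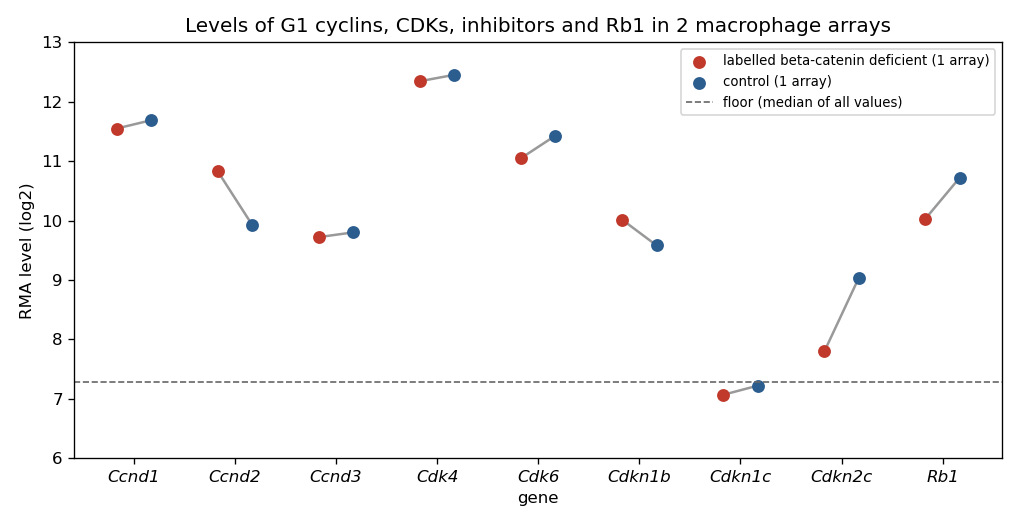
RMA level (log2) of each of the 9 G1 genes, with the array labelled beta-catenin deficient left of the control array and 1 point per array. The line joining the points slopes most for Cdkn2c (7.80 against 9.03) and in the other direction for Ccnd2 (10.83 against 9.93), and both points of Cdkn1c lie below the dashed floor of 7.28.

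Promoter sequence is shown for the inhibitor with the largest difference, Cdkn2c, at both of its annotated starts, and for Cdk4, the kinase whose promoter held the most motif matches. Each run is the 250 bases before a transcription start, written 5′ to 3′ on the gene's strand, from RefSeq on GRCm38.p6. Capitals mark matches to the motifs searched on both strands.
Cdkn2c upstream start, chr4:109666757-109667006, minus strand: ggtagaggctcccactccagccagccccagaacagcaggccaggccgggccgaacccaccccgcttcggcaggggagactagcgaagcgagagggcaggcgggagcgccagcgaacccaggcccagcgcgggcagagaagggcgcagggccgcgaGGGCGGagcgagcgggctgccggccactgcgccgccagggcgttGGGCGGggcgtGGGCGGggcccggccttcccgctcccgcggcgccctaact
Cdkn2c downstream start, chr4:109665373-109665622, minus strand: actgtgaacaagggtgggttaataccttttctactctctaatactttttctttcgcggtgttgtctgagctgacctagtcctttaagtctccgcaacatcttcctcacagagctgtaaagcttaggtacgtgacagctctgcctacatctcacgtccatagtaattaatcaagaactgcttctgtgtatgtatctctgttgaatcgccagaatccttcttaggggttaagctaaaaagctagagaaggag
Cdk4, chr10:127063285-127063534, plus strand: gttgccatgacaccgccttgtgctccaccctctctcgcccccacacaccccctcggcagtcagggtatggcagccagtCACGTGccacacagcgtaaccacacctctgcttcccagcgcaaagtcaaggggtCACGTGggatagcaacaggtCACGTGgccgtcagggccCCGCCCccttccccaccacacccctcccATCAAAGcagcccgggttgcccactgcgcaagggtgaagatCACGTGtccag

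The motifs were the TCF/LEF site CTTTGAT, the E-box CACGTG that Myc and related factors bind, the GC box GGGCGG of Sp1-type factors, and the E2F site in the spellings TTTCCCGC, TTTCGCGC, TTTGCCGC and TTTGGCGC. RefSeq windows were found for 5 of the 9 measured genes (Ccnd3, Cdk4, Cdk6, Cdkn1b and Cdkn2c), 7 windows in all, and no motif matches overlapped. The TCF/LEF letters were in 1 of the 7, that of Cdk4, and in 3.21% of all 32851 windows of the same length. The E-box was in 2 of the 7, with 4 copies in Cdk4 and 1 in Cdk6, and in 6.02% of all windows. GC boxes were in 5 of the 7 and in 32.7% of all windows, with 3 in the upstream Cdkn2c window and 0 in the downstream one. The E2F spellings were in 0 of the 7 and in 1.86% of all windows. The upstream Cdkn2c window was 77.2% G and C and the downstream one 42.8%. A match is a description of the letters and not a binding site.

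Among the D cyclins, Ccnd2 was the 1 past 1.5-fold. Ccnd2 (transcript cluster 10548105) was at 10.83 in the array labelled deficient and 9.93 in the control array, a difference of 0.90 or 1.87-fold. This was larger than the difference of 96.6% of genes at the floor, and of 96.9% of the 1648 genes within 0.5 of its mean level. Ccnd2 is the D cyclin that haematopoietic cells often switch on with growth factor stimulation.

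Ccnd1 (transcript cluster 10569646) was at 11.55 in the array labelled deficient and 11.69 in control, a difference of -0.14. Ccnd3 (transcript cluster 10445688), the D cyclin most widely found in differentiated cells, was at 9.72 in the array labelled deficient and 9.80 in control, a difference of -0.08. The beta-catenin target Ccnd1 was thus nearly level between the arrays. Ccnd3 was also nearly level, and its sign turned to 0.0061 once the dependence of the difference on level was taken out with a loess curve. The difference of Ccnd2 exceeded that of Ccnd1 by 1.04 and that of Ccnd3 by 0.98 on the log2 scale, and Ccnd1 and Ccnd3 lay 0.06 apart. Neutrophil precursor and stromal markers were higher in the same array as Ccnd2, and their part in its difference was not tested.

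Both kinases lay within 1.5-fold. Cdk4 (transcript cluster 10366814), the main D cyclin partner in most tissues, was at 12.35 in the array labelled deficient and 12.45 in control, a difference of -0.11. Of the genes of like level, 32.7% had a lower difference than Cdk4. Its promoter, shown above with a TCF/LEF match and 4 E-boxes, thus went with a nearly level transcript. Cdk6 (transcript cluster 10519324), a D cyclin partner prominent in blood cells, was at 11.05 in the array labelled deficient and 11.43 in control. Its difference of -0.38, which less that of Cdk4 leaves -0.27, lay above that of 16.9% of the 869 genes of like level.

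Of the 3 inhibitors with a value, Cdkn2c was the 1 past 1.5-fold. Cdkn2c (transcript cluster 10515090), the INK4 inhibitor p18, was at 7.80 in the array labelled deficient and 9.03 in control. Its difference of -1.24, 2.36-fold lower, was the largest of the 9 genes in size. Only 0.638% of all genes at the floor had a lower difference, and 0.512% of the 2928 genes of like level. It was the 1 G1 gene past 2-fold, where 1.59% of all genes were at least 2-fold lower. No G1 gene was 2-fold higher, where 2.96% of all genes were.

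Cdkn1b (transcript cluster 10542310), the Cip/Kip inhibitor p27, was at 10.01 in the array labelled deficient and 9.58 in control. Its difference of 0.43 lay above that of 88.4% of all genes at the floor but did not reach 1.5-fold. A second, dimmer row annotated to Cdkn1b (transcript cluster 10542317) went the other way. It was at 6.11 in the array labelled deficient and 6.60 in control, below the floor in both, with a difference of -0.49. The mean of both rows gave -0.027, so the sign for Cdkn1b rests on the brighter row. Part of the p27 protein's control lies in its breakdown, which an RNA array does not read.

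Cdkn1c (transcript cluster 10569429), the imprinted Cip/Kip inhibitor p57, was at 7.07 in the array labelled deficient and 7.22 in control, both below the floor. Its difference of -0.15 was close to the median of -0.14 among genes of like level. It was left out of the counts for that reason.

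**Figure D2:**
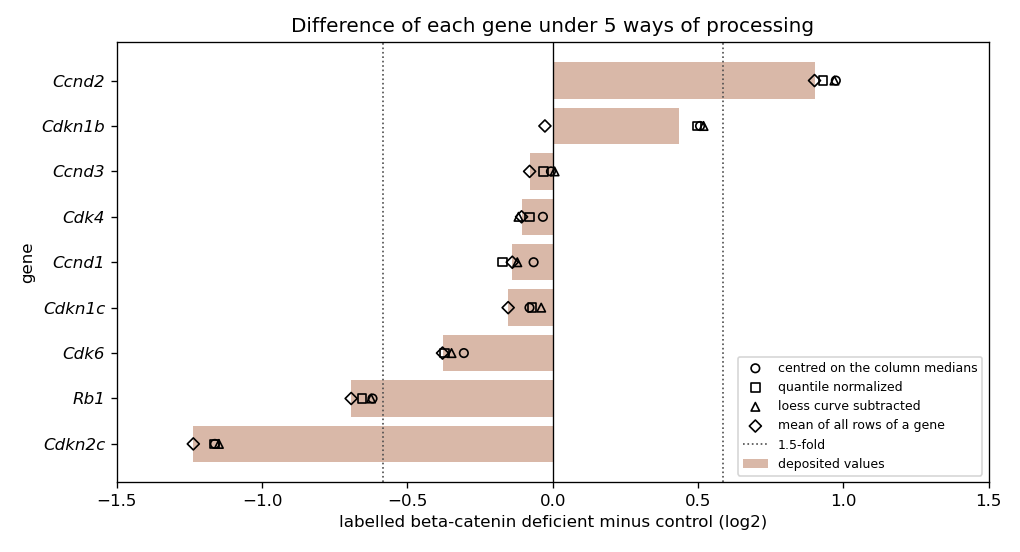
Difference of each of the 9 G1 genes on the log2 scale, labelled beta-catenin deficient minus control, with bars for the deposited values and open symbols for 4 other ways of processing. Dotted lines mark 1.5-fold. Ccnd2 (0.90), Rb1 (-0.69) and Cdkn2c (-1.24) stayed past them in each, and Cdkn1b turned to -0.027 when its rows were averaged.

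Rb1, whose product is the substrate of these kinases and the brake on E2F, was lower in the array labelled deficient. Rb1 (transcript cluster 10421526) was at 10.03 in the array labelled deficient and 10.72 in control. The difference of -0.69, 1.62-fold lower, was past 1.5-fold but not 2-fold, and 5.63% of all genes at the floor had a lower one. Its relatives of the pocket protein family, which also bind E2F factors, had negative differences as well. Rbl1, which encodes p107 and is itself an E2F target, was at 9.06 in the array labelled deficient and 9.98 in control, a difference of -0.93. Rbl2, which encodes p130 and is named here after its values were seen, was at 8.88 in the array labelled deficient and 9.44 in control, a difference of -0.56 that did not reach 1.5-fold.

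**Figure D3:**
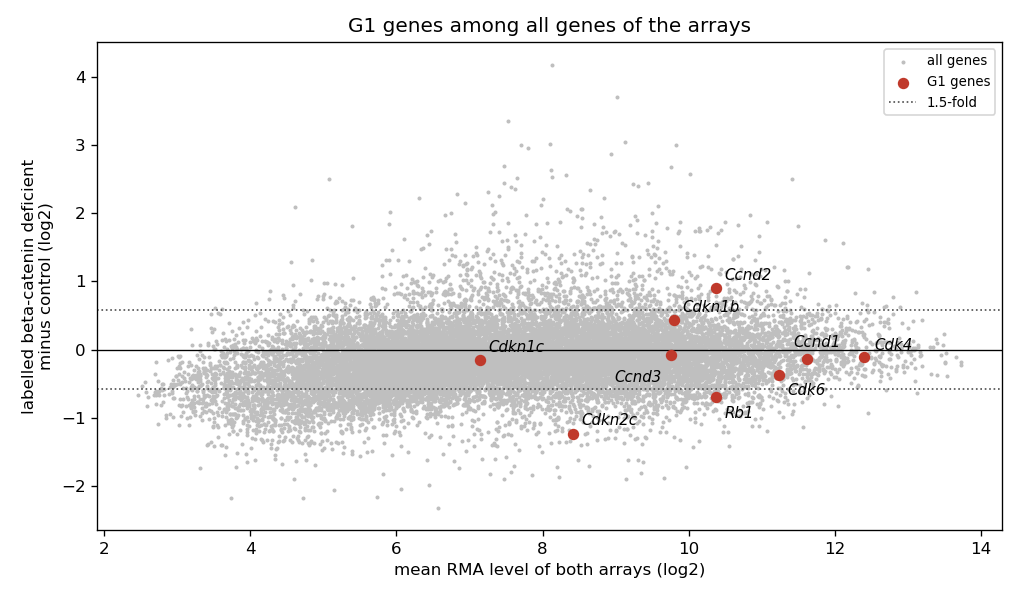
Difference on the log2 scale, labelled beta-catenin deficient minus control, against the mean RMA level of both arrays for all 19871 genes (grey) and the 9 G1 genes (red). Ccnd2, Rb1 and Cdkn2c lie past the dotted 1.5-fold lines, toward the edge of the cloud at their level, and the other 6 lie within it.

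Among the other G1 and G1/S regulators, 21 of the 25 at the floor lay within 1.5-fold, 4 were lower (16% against 8.81% of all genes) and 0 were higher. Their median of -0.17 lay close to that of all genes (-0.08), and counts of this size do not set the list apart. Cdkn2a, the INK4 and Arf locus, was below the floor. The lowest were E2f2 (-1.02), the repressor-type E2f8 (-1.19) and Rbl1, together with cyclin E2, Ccne2. Ccne2 was at 8.30 in the array labelled deficient and 9.20 in control. Cyclin E1, Ccne1, differed by -0.38, its kinase Cdk2 by -0.11 and the growth regulator Myc by -0.17. The highest were Cdk7 of the CDK-activating kinase (0.35), E2f5 (0.31) and E2f1 (0.30), all within 1.5-fold. E2F family members thus lay on both sides of 0, with those past 1.5-fold on the lower side.

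Genes that act after G1 were counted in the same way. Of 28 S-phase genes that E2F factors are known to switch on, 7 were lower (25% against 8.81% of all genes), 0 were higher (against 7.54% of all genes) and 21 lay within 1.5-fold, with a median of -0.46. The lower count was 4 after centring, quantile normalization or loess, where the lower share of all genes was 6.59%, 6.93% and 6.26%. The lowest were Mcm10 (-0.77), cyclin A2, Ccna2 (-0.73), and the helicase subunit Mcm6 (-0.72). The highest were the clamp loader subunit Rfc3 (0.44), the ribonucleotide reductase subunit Rrm2 (0.19) and the sliding clamp Pcna (-0.14). Of 25 mitosis genes, 14 were lower (56% against 8.81% of all genes), 0 were higher and 11 lay within 1.5-fold, with a median of -0.62. The kinesin Kif11 (-1.28), the spindle protein Nusap1 (-1.13) and the checkpoint kinase Bub1 (-1.08) were lowest. Aurkb (0.10), Plk1 (-0.29) and Kif20a (-0.40) were highest, while the proliferation marker Mki67 was at -0.71 and Cdk1 at -0.43.

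Set beside these lists, Ccnd1, Ccnd3 and Cdk4 were nearly level, and Ccnd2 and Cdkn1b had positive differences. Cdkn2c lay within the range of the mitosis genes, which ran from -1.28 to 0.10, and Rb1 lay near their median. Cdkn2c is known to be switched on by E2F in proliferating cells. In the array labelled deficient, 7 of 28 S-phase genes and 14 of 25 mitosis genes were lower, against 8.81% of all genes. Their part in the differences of Cdkn2c and Rb1 was not tested. The stromal markers (median 1.04 over all measured) and neutrophil markers (median 1.30) were mostly on the opposite side in the same array.

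**Figure D4:**
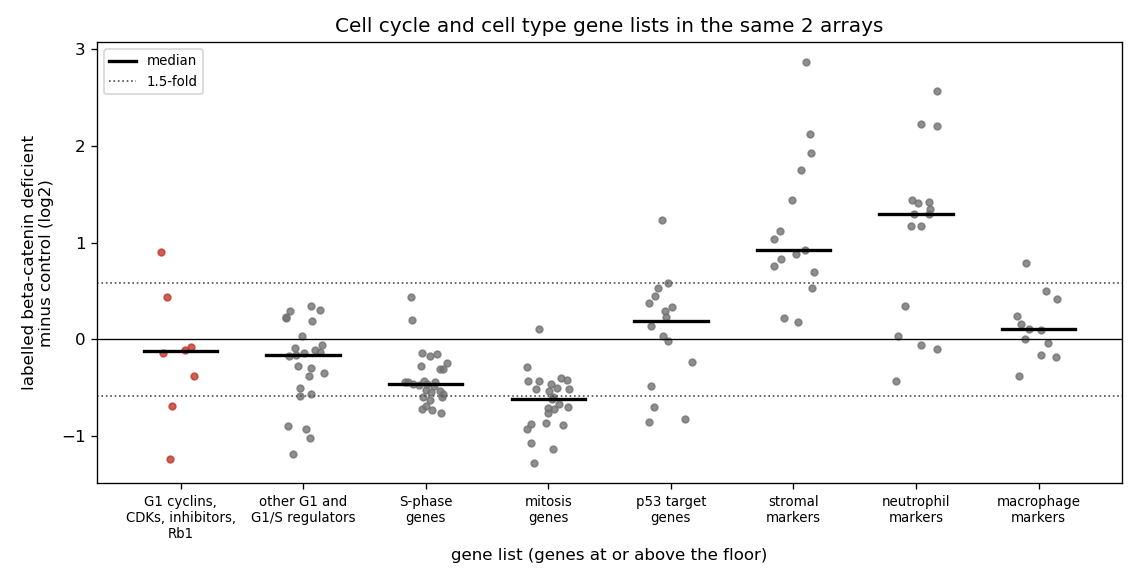
Difference on the log2 scale, labelled beta-catenin deficient minus control, of each gene at or above the floor in 8 gene lists, with 1 point per gene, a bar at the list's median and dotted lines at 1.5-fold. The G1 genes (median -0.12) spread from -1.24 to 0.90 around a median near 0, while S-phase genes (-0.46) and mitosis genes (-0.62) lie mostly below 0, many of them within 1.5-fold, and stromal markers (0.93) and neutrophil markers (1.30) mostly above. Some stromal and neutrophil markers reached the floor only in the array labelled deficient.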

How the data were processed

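Total RNA of 2 bone marrow derived macrophage cultures was measured on 1 array each. The deposited table holds log2 values made by the authors with RMA, per the submitters' processing notes. RMA as commonly run corrects background, quantile-normalizes and summarises probes. The 2 deposited columns did not have equal distributions. Their medians were 7.24 in the array labelled deficient and 7.31 in control, and their interquartile ranges 3.21 and 3.00. How this arose was not tested. The sources used here give neither the RMA version nor whether a column pools several hybridisations. The log2 scale was read from the values (2.12 to 13.98 in the array labelled deficient, 2.70 to 14.11 in control). RMA values carry no detection call, and the number of arrays limits the precision.

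Of 25917 rows, 21632 had 1 gene symbol in GEO's platform annotation, 1560 several and 2725 none. Symbols were updated through Entrez IDs to RefSeq (GRCm38.p6), which changed 0, and 21537 rows matched. The row with the highest mean was kept per gene, leaving 19871 genes, 10658 of them at the floor. Pearson's r between the columns was 0.977 across rows, which are not replicates. Summed levels of marker lists are the log2 of summed linear values over all measured members. No test was run, since 1 array per group leaves no residual degrees of freedom. The counting code was tried on simulated data with large planted shifts, little noise and no floor. That checks the code only and says nothing of how reliable the counts are. Python 3.11.15, pandas 2.3.3 and statsmodels 0.14.6 were used, with a loess span of 0.3.

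Named genes are all measured members. For the cell cycle and p53 lists they are also the 3 highest and 3 lowest genes at the floor, with Ccne1, Ccne2, Cdk2, E2f1, Myc, Mki67, Cdk1, Ctnnb1 and Axin2. Single cell type markers, such as Cpa3, are named as examples and not by this rule. The members, lists and rules were chosen with earlier results of these data known.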

Additional observations from a re-analysis of the deposited data

How the results depend on the processing

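Ccnd2, Cdkn2c and Rb1 kept their direction and stayed past 1.5-fold under centring, quantile normalization, loess and averaging of rows. The signs that turned were those of Ccnd3 (0.0061 after loess) and Cdkn1b (-0.027 with its rows averaged). The median of all genes at the floor also turned, to 0.00038 after loess. The number of G1 genes counted as higher went to 0 at 2-fold. The number counted as lower went to 1 at 2-fold, where Rb1 dropped out, and to 1 with a floor at the 75th percentile (9.07), which Cdkn2c does not reach. Quantile normalization put the median of all 19871 genes at -0.0012, where it was -0.15 in the deposited values. The share of higher genes among those past 1.5-fold was 46.1% (804 higher, 939 lower) as deposited, 58.7% after centring, 56.2% after quantile normalization and 60.1% after loess. Without a floor it was 27.7% (990 higher, 2590 lower), and at 2-fold it was 65.1% (315 higher, 169 lower). With the floor at the 75th percentile, 441 genes were higher and 481 lower.

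At 2-fold, 1.59% of all genes at the floor were lower. The counts were 2 of 25 other G1 regulators, 0 of 28 S-phase genes, 3 of 25 mitosis genes and 0 of 16 p53 targets. With the floor at the 75th percentile, 4 of 20 S-phase genes were lower, against 8.83% of all genes. No paired analysis was possible because each group had 1 array.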

Other observations

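Genes switched on by p53, the best known activator of Cdkn1a, lay mostly within 1.5-fold. Of 16 at the floor, 1 was higher (6.25% against 7.54% of all genes) and 3 were lower (18.75% against 8.81% of all genes), with a median of 0.19, and the median of all 19 measured was 0.033. The lowest were the ribonucleotide reductase subunit Rrm2b (-0.85), the p53 ubiquitin ligase Mdm2 (-0.82) and the stress gene Gadd45a (-0.71). Rrm2b reached the floor in control only (8.03, against 7.17 in the array labelled deficient). The highest were the kinase Plk2 (1.23), Ei24 (0.58) and the death receptor Tnfrsf10b (0.53). The higher count was 3 of 16 after centring, quantile normalization or loess. Of all genes, 997 of 10640, 946 of 10640 and 1003 of 10658 were then higher, against 804 of 10658 as deposited. With the floor at the 75th percentile, 1 of 9 p53 targets was lower, against 8.83% of all genes. Bbc3, Eda2r and Perp lay below the floor.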
